A study of Mus musculus with 18 samples.

Results

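The 39 genes described here encode subunits of the mitochondrial respiratory chain and ATP synthase. They were taken as a list of gene symbols, by a rule that uses no measured value, and each was read from its brightest probeset that carries a single gene symbol. All 39 listed genes had one, among 19937 genes with such a probeset. By complex they were 20 genes of complex I, 4 of complex II, 6 of complex III, 6 of complex IV and 3 of complex V.

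The respiratory chain sits in the inner mitochondrial membrane and passes electrons from NADH and succinate to oxygen. Complex I oxidises NADH, complex II oxidises succinate, complex III carries electrons from ubiquinol to cytochrome c, and complex IV reduces oxygen. Complexes I, III and IV pump protons, and complex V, the ATP synthase, uses the resulting gradient to make ATP. Each complex except II combines subunits encoded in the nucleus with subunits encoded in mitochondrial DNA, and all 39 genes here are nuclear. In brain, neurons depend heavily on this pathway to restore ion gradients.

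Expression was measured on 18 arrays of hypothalamus dissected under a microscope, some labelled as mutant for Wfs1 and some as wild type. The gene encodes wolframin, a membrane glycoprotein of the endoplasmic reticulum. The sample labels name the background 129SV, whereas the series as a whole is described as 129S6, and the labels give neither age, sex, treatment nor the kind of Wfs1 allele. They give the genotype in a field (9 KO, 9 WT) and again at the end of the sample title (10 ko, 8 wt), and these disagree on 9 arrays. Each array is named here by its ending and then its field, which gave 5 ko/KO, 4 wt/WT, 5 ko/WT and 4 wt/KO arrays. Comparisons were made by each label without deciding between them. Whether every array came from its own animal is not stated, so a p-value covers the variation among arrays only, which may be partly technical.

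Array medians lay between 7.10 and 7.19 log2 units. The standard deviation of all values was 1.93 to 1.96 on 3 arrays (wt/WT 1, wt/WT 2 and ko/KO 2) and 1.99 to 2.04 on the other 15, and counts and medians of members that these 3 arrays move are given without them. Array wt/WT 3 had a high signal of Ttr, a choroid plexus gene (12.8 log2 units), and array ko/WT 4 a low signal of Xist (5.93). Every neuronal, astrocyte and oligodendrocyte marker gene read here (13, 12 and 14 genes) was above the lower quartile of values on at least 1 array. Of the 11 choroid plexus markers, 1 was below it on every array. Of 19 hypothalamic and 12 thalamic markers, 0 were below it on every array. Precision is limited by having 18 arrays.

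Where the promoters of the members are known, they show how far the genes share sequence near their start. The RefSeq promoter table of build GRCm38.p6 held a window of 300 bases for 28 of the 39 members. Of these 28 windows, 12 (42.9%) held at least 1 of 3 motifs whose factors are known regulators of nuclear genes for mitochondrial proteins. The share was 13.8% of all 27025 promoters in the table and 27.4% of the 6201 promoters of genes at least as bright as the dimmest member. The letters GCGCATGC, part of the site of NRF-1, stood on either strand in 5 windows (17.9%, against 2.80% of all promoters and 6.22% of those of bright genes). These were Cox6a1, Ndufa6, Ndufa8, Sdhb and Uqcrc1. The letters CCGGAAG, a site of the GABP family, stood in 5 windows (Cox6a1, Ndufs3, Ndufs8, Sdhb and Sdhd), which is 17.9% against 9.12% of all promoters and 18.6% of those of bright genes. The letters AAGATGGC, a site of YY1, stood in 4 windows (Ndufa9, Ndufb8, Ndufs4 and Ndufs7), which is 14.3% against 2.88% and 5.22%. GGGCGG, the core of an SP1 site, stood in 46.4% of the member windows, 35.9% of all windows and 67.9% of those of bright genes, and CCAAT in 32.1%, 37.9% and 37.9%. A match is a description of these letters and not a site of binding.

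The 5 windows printed here belong to subunits on which the results below turn, and were chosen after their values were seen. Sdhb and Ndufa5 are partners in 1 of the 5 closest pairs of members, and Cox6a1 and Ndufb8 are each part of another. Ndufb3 is in none of these pairs and followed the mean of the other members at r = 0.22. They lie at chr4:140961021-140961320 on the plus strand, chr6:24527477-24527776 on the minus strand, chr5:115348909-115349208 on the minus strand, chr19:44555393-44555692 on the minus strand and chr1:58586147-58586446 on the plus strand, and each is written 5′ to 3′ in the direction of the gene. Capitals mark matches to the NRF-1, GABP or YY1 letters on either strand.
Sdhb: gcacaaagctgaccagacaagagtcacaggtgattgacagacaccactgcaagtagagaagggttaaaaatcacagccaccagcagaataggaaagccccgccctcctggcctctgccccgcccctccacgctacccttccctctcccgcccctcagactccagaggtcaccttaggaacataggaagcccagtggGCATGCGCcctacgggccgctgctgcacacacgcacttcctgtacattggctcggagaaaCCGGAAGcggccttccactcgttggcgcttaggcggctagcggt
Ndufa5: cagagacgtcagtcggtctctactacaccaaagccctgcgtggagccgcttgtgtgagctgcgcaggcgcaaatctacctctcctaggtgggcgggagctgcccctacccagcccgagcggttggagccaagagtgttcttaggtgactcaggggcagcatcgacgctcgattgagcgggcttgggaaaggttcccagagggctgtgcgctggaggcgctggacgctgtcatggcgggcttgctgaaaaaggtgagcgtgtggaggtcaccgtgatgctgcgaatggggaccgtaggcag
Cox6a1: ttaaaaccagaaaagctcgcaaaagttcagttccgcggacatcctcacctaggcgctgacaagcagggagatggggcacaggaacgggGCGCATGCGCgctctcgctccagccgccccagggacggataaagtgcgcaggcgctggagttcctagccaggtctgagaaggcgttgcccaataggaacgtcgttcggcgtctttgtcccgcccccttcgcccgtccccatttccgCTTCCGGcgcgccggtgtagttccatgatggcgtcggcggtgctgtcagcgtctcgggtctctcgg
Ndufb8: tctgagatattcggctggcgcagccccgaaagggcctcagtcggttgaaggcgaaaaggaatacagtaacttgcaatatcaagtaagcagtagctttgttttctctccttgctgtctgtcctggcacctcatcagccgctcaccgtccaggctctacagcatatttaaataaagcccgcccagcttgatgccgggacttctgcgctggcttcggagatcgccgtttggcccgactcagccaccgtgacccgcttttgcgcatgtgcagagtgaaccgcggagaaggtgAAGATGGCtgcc
Ndufb3: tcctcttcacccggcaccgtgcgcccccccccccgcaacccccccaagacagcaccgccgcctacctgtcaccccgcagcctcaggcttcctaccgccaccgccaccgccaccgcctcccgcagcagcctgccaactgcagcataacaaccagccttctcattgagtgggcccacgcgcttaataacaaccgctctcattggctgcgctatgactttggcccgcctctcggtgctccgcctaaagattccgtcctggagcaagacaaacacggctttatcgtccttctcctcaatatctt
In Sdhb the NRF-1 letters began 54 bases before the start and the GABP letters at base 7 of the transcript. In Cox6a1 matches to the NRF-1 letters on the 2 strands overlap in a palindrome that began 162 bases before the start, and the GABP letters began 16 bases before it. In Ndufb8 the YY1 letters began at base 39 of the transcript. The windows of Ndufa5 and Ndufb3 held none of the 3 motifs. How motifs in these windows relate to the covariation shown further on was not tested. SP1 and CCAAT letters are not capitalised.

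All 39 subunits were bright. Their mean signals ran from 8.19 log2 units for Ndufb10 to 12.7 for Atp5b, and no member fell below the lower quartile of its array (a quartile of 5.81 to 6.0) on any array. By complex the means spanned 8.19 to 11.97 in complex I, 9.43 to 11.5 in II, 8.99 to 11.7 in III, 10.2 to 11.998 in IV and 12.1 to 12.7 in V. Probesets differ in their response, so these ranges do not rank the subunits by amount of RNA. In whole tissue, fewer cells of a type and less RNA per cell cannot be told apart.

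The members varied between arrays about as much as other bright genes. Of the 39 members, 25 had a standard deviation below the median of all genes. Only 16 were below the median of the genes at least as bright as the dimmest member. The standard deviation of a member over the 18 arrays was 0.0565 to 0.221 log2 units, with a median of 0.113, against 0.133 over all genes and 0.108 over the 7628 genes at least as bright as the dimmest member. The median was 0.125 in complex I, 0.111 in II, 0.100 in III, 0.159 in IV and 0.0578 in V. Atp5c1, the gamma subunit that forms the rotor shaft of ATP synthase, had the smallest spread of all 39 (0.0565), with values from 11.97 to 12.2. Atp5a1, of the alpha subunit, followed (0.0578), and Atp5b, of the catalytic beta subunit, had the widest spread of complex V at 0.0780. In complex I the spread ran from 0.0688 for Ndufv2, a subunit of the NADH-oxidising module, to 0.221 for Ndufa2, an accessory subunit of the same arm. In complex II it ran from 0.0670 for Sdha, the flavoprotein that binds succinate, to 0.146 for Sdhb, the iron-sulfur subunit. In complex III it ran from 0.0964 for the core subunit Uqcrc2 to 0.193 for the small accessory subunit Uqcrq. In complex IV it ran from 0.0984 for Cox5b to 0.200 for Cox6a1, the form of subunit VIa found in most tissues.

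The members tended to deviate together on an array. Averaged over the 39 members, the deviation from each member's own mean was lowest on wt/WT 1 (-0.13 log2 units) and highest on ko/WT 3 (0.11). On ko/WT 3, 37 of 39 members were above their own mean, against 6 on wt/KO 2 and 7 each on wt/WT 1 and wt/WT 2. The share of all genes above their own mean was not counted. On wt/WT 1 and wt/WT 2 other lists were low too, at -0.13 and -0.13 for glycolysis genes and -0.09 and -0.16 for astrocyte markers. Neuronal markers were at -0.07 and -0.15, but choroid plexus markers at 0.26 and 0.07. On ko/WT 3 these 4 lists were at 0.04, 0.03, 0.02 and -0.01, and on wt/KO 2 at 0.04, 0.05, 0.00 and -0.22. The arrays labelled ko/WT were all above 0 (0.02 to 0.11), whereas each of the other 3 label groups held arrays on both sides of 0. Array ko/KO 1 was at -0.10 and ko/KO 5 at -0.09, while ko/KO 4 was at 0.05, so arrays that carry the same pair of labels lay far apart.

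**Figure D1:**
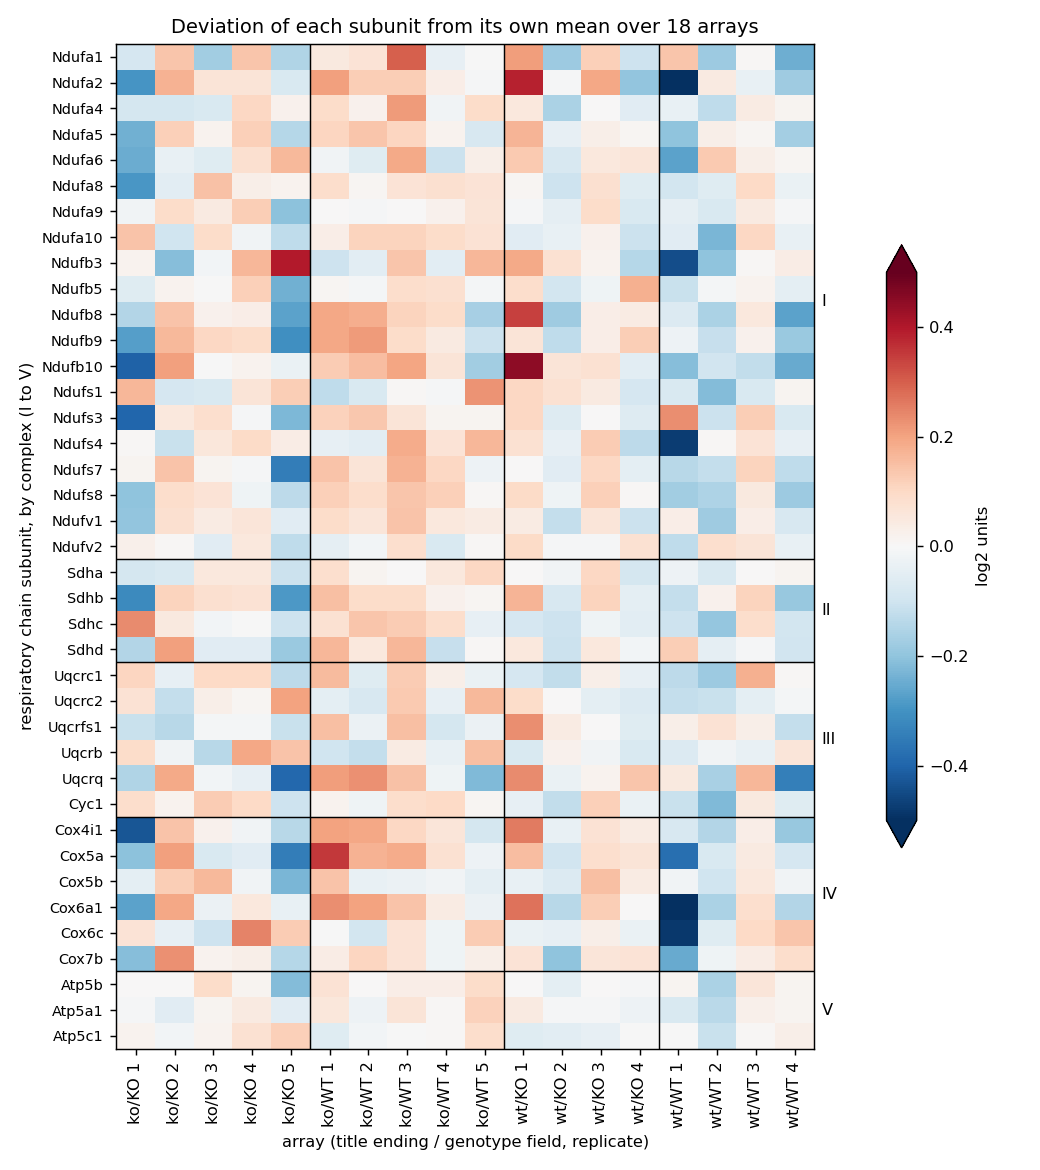
Deviation in log2 units of each of the 39 subunits (rows, by complex I to V) from its own mean over the 18 arrays (columns, by title ending and genotype field); red is above and blue below the mean, and the colour scale ends at 0.5 in both directions. Whole columns tend to one colour, red on ko/WT 3 (37 of 39 members above their mean) and blue on wt/WT 1 (7 of 39), and the rows of complex V are pale.

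The subunits with the widest spread in their complexes show these arrays by value. Ndufa2 read 8.74, 9.21, 9.1, 9.1 and 8.96 log2 units on the ko/KO arrays 1 to 5 and 9.24, 9.16, 9.16, 9.07 and 9.03 on the ko/WT arrays. It read 9.42, 9.03, 9.23 and 8.84 on the wt/KO arrays and 8.43, 9.08, 9.0 and 8.86 on the wt/WT arrays. Its lowest value by far was on wt/WT 1 and its highest on wt/KO 1, and the 4 label groups overlapped. Cox6a1 read 11.08, 11.54, 11.32, 11.4 and 11.31 on ko/KO, 11.58, 11.55, 11.49, 11.39 and 11.32 on ko/WT, 11.62, 11.21, 11.47 and 11.35 on wt/KO, and 10.81, 11.19, 11.43 and 11.2 on wt/WT. Its extremes were on the same arrays as those of Ndufa2. Sdhb read 9.28, 9.71, 9.68, 9.67 and 9.31 on ko/KO, 9.75, 9.69, 9.69, 9.62 and 9.61 on ko/WT, 9.77, 9.52, 9.71 and 9.55 on wt/KO, and 9.48, 9.62, 9.71 and 9.41 on wt/WT. Its lowest values were on ko/KO 1 and ko/KO 5 and its highest again on wt/KO 1. Uqcrq read 8.88, 9.22, 9.02, 8.99 and 8.64 on ko/KO, 9.24, 9.26, 9.18, 9.01 and 8.81 on ko/WT, 9.27, 9.0, 9.05 and 9.17 on wt/KO, and 9.08, 8.87, 9.2 and 8.69 on wt/WT. It was low on ko/KO 5 and wt/WT 4 and was not among the low genes on wt/WT 1. Atp5b spanned a smaller range than these 4, from 12.47 on ko/KO 5 and 12.53 on wt/WT 2 to 12.78 on ko/KO 3 and ko/WT 5.

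**Figure D2:**
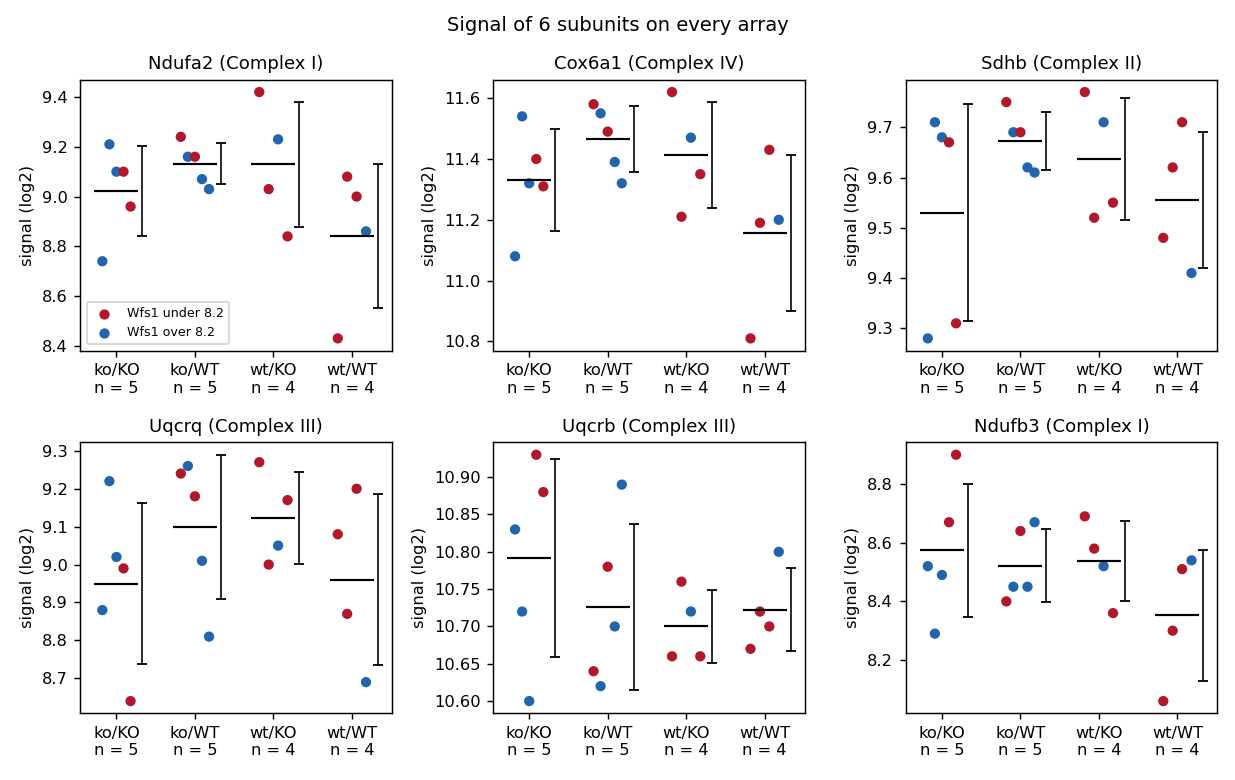
Signal in log2 units of 6 subunits on every array, by label group (title ending / genotype field); points are arrays in order of replicate number, red where Wfs1 read under 8.2 log2 units and blue where it read over, black lines are group means and bars the SD. The label groups overlap for all 6; Ndufa2 and Cox6a1 are lowest on wt/WT 1, and Uqcrb is highest (10.93) on ko/KO 4.

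The comparisons by label ask whether the arrays labelled mutant differ from those labelled wild type. They gave no called member. With limma across all 19937 genes and a Benjamini-Hochberg adjusted p under 0.05, 0 of 39 members and 0 genes (0%) were called by the title ending, by the genotype field, on the 9 arrays whose labels agree and on the 9 whose labels contradict each other. At an unadjusted p under 0.05 limma gave 923 genes and 1 member by ending, 1386 and 0 by field, 2218 and 0 on the agreeing arrays and 546 and 2 on the contradicting arrays. No member differed by as much as 0.25 log2 units in any of the 4 comparisons. The largest size was 0.13 by ending, 0.11 by field, 0.22 on the agreeing arrays and 0.14 on the contradicting arrays, beside median standard errors of 0.056, 0.055, 0.091 and 0.066.

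By title ending, 32 of 39 members had the higher mean on the arrays ending ko, beside 51.8% of all genes, with a median difference of 0.05 log2 units against 0.00 over all genes. Among the 11963 genes left without the dimmest 40%, which are nearer to the members in brightness, 66.8% were higher, with a median of 0.02. This held for 16 of 20 members in complex I, 4 of 4 in II, 4 of 6 in III, 5 of 6 in IV and 3 of 3 in V. Without the 3 arrays of smallest spread the count was 25 of 39 and the median 0.01. After quantile normalization 28 of 39 were higher, with a median of 0.03, beside 47.6% of all genes. With each array centred on its median 34 of 39 were higher, with a median of 0.06, beside 58.3% of all genes. The mean deviation of the 39 members ran from -0.10 to 0.11 on the 10 arrays ending ko and from -0.13 to 0.10 on the 8 ending wt, so these ranges overlap almost whole. Sdhc, a membrane anchor of complex II that helps bind ubiquinone, had the smallest p. It read 10.52 to 10.86 with a median of 10.685 on the arrays ending ko, and 10.43 to 10.71 with a median of 10.535 on those ending wt, a difference of 0.13 (SE 0.05; limma adjusted p = 0.884). Cyc1, the cytochrome c1 of complex III, differed by 0.10 (SE 0.05) and Ndufa10, an accessory subunit of complex I, by 0.09 (SE 0.05), both with a limma adjusted p of 0.884. Cyc1 differed by 0.06 without the 3 arrays of smallest spread. All 3 had values in one group that lay inside the range of the other. Of the marker genes of cells and regions, 0 passed the threshold. The mean was higher on the arrays ending ko for 14 of 14 oligodendrocyte, 10 of 12 thalamic, 10 of 12 astrocyte and 8 of 10 endothelial markers. It was higher for 9 of 13 neuronal and 7 of 11 microglia markers, but only for 1 of 19 hypothalamic, 2 of 11 choroid plexus and 0 of 4 blood markers. The lists differed in brightness, with a median signal of 10.1 log2 units for thalamic, 7.79 for hypothalamic and 6.58 for choroid plexus markers. The mean deviation of the thalamic list ran from -0.11 to 0.20 on the arrays ending ko and from -0.18 to 0.10 on those ending wt, and that of the hypothalamic list from -0.23 to 0.11 and from -0.18 to 0.14. Their part in the counts of members was not tested.

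By genotype field, 17 of 39 members were counted with the higher mean on the arrays labelled KO, including Ndufa9, whose means were equal at 10.44. The share was 47.2% of all genes and 62.5% of those left without the dimmest 40%. The median difference of the members was -0.01, against 0.02 for the genes left without the dimmest 40%. The direction of that median depended on scaling: it was 0.01, with 22 members higher, when each array was centred on its median, and -0.04, with 9 higher, after quantile normalization. The count was 8, with a median of -0.05, without the 3 arrays of smallest spread, and also 8 without wt/WT 1 alone. Ndufs3, a core subunit of complex I, had the smallest p and read 10.45 to 10.95 with a median of 10.84 on the KO arrays and 10.74 to 11.08 with a median of 10.91 on the WT arrays, a difference of -0.11 (SE 0.06; limma adjusted p = 0.695). Its other probeset, which was dimmer, followed the one used at r = 0.35. With the mean of the probesets in its place the difference was -0.01, and without ko/KO 1 it was -0.07. Ndufb3, an accessory subunit of the membrane arm, was 0.11 higher on the KO arrays (SE 0.08), or 0.06 without wt/WT 1, 0.07 without ko/KO 5 and 0.07 without the 3 arrays of smallest spread, and Ndufa4, first described in complex I and now assigned to complex IV, had a difference of -0.06 (SE 0.05), or -0.04 without ko/WT 3.

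Where both labels agree, 30 of 39 members had the higher mean on the ko/KO arrays, beside 49.5% of all genes, with a median difference of 0.03. Without the dimmest 40%, 68.4% of genes were higher and their median, 0.05, was above that of the members. The direction changed with the handling of the arrays: 17 members were higher after quantile normalization (median -0.02) and 13 without the 3 arrays of smallest spread (median -0.03), all of which belong to this comparison. Ndufb3 gave the smallest p. It read 8.52, 8.29, 8.49, 8.67 and 8.9 on the ko/KO arrays and 8.06, 8.3, 8.51 and 8.54 on the wt/WT arrays, a difference of 0.22 (SE 0.13; limma adjusted p = 0.508). Its lowest value was on wt/WT 1, and the difference was 0.12 without that array and 0.14 without ko/KO 5. Cyc1 differed by 0.13 (SE 0.08) and Ndufs1, the largest core subunit of complex I, by 0.13 (SE 0.08). Without wt/WT 2 both values came to 0.09 and 0.08, after quantile normalization both came to 0.08, and Cyc1 stood at 0.06 without the 3 arrays of smallest spread. Of the 39 members, 0 had groups that did not overlap, beside 2.82% of all genes.

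Where the labels contradict each other, 30 of 39 members had the higher mean on the ko/WT arrays than on the wt/KO arrays, beside 53.0% of all genes and 49.8% without the dimmest 40%, with a median difference of 0.04. It kept its direction under both other scalings (29 and 31 members higher). Of the markers, 0 passed the threshold, and the mean was higher on the ko/WT arrays for 0 of 19 hypothalamic (median difference -0.13), 10 of 12 thalamic (0.15) and 13 of 14 oligodendrocyte markers (0.07). Their part in the count of members was not tested. Ndufa10 was the single member whose groups did not overlap, beside 0.767% of all genes. It read 11.28, 11.36, 11.36, 11.34 and 11.32 on the ko/WT arrays and 11.19, 11.21, 11.27 and 11.14 on the wt/KO arrays, a difference of 0.13 (SE 0.05; limma adjusted p = 0.9998). The lowest ko/WT value lay just above the highest wt/KO value. Sdhc read 10.7, 10.76, 10.75, 10.71 and 10.58 against 10.54, 10.52, 10.6 and 10.57, a difference of 0.14 (SE 0.06; limma adjusted p = 0.9998), and ko/WT 5 lay below wt/KO 3. Ndufv1, the subunit that binds NADH, differed by 0.11 (SE 0.06). The difference between the agreeing and the contradicting arrays was tested as an interaction in limma and called 0 members and 0 genes (lowest adjusted p = 0.625 for a member and 0.564 for any gene). By ending and by field, 0 members had groups that did not overlap, beside 0.00502% of all genes in each.

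**Figure D3:**
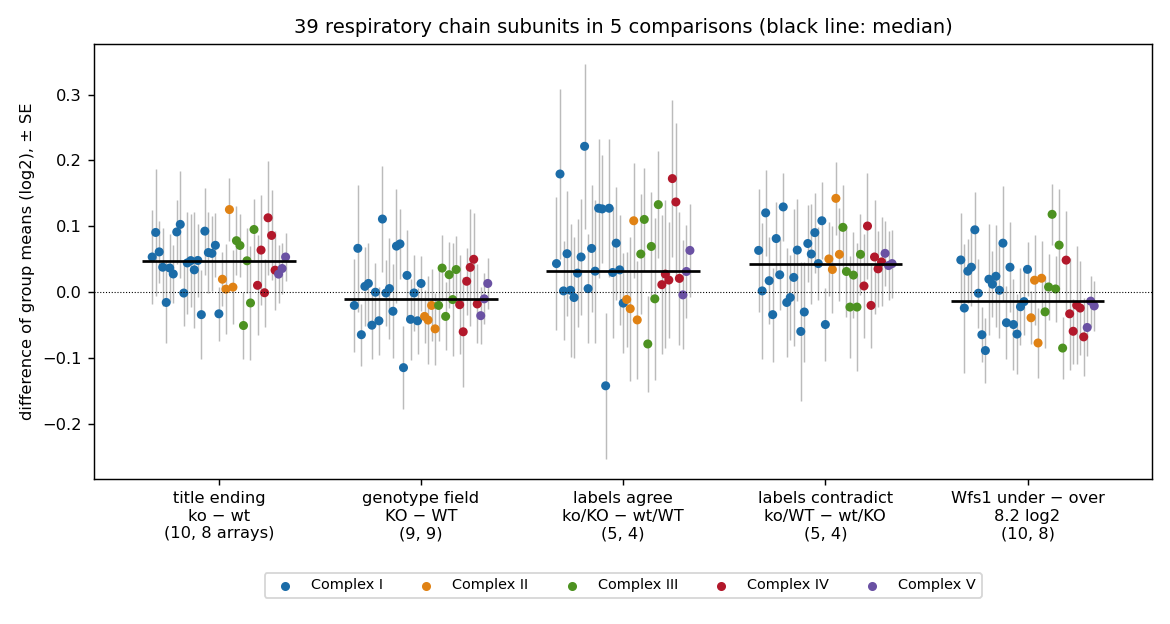
Difference of group means in log2 units for the 39 subunits, coloured by complex, in the 5 comparisons; bars are the standard errors of limma and black lines the medians (0.05, -0.01, 0.03, 0.04 and -0.01 from left to right). No point lies beyond 0.25 in either direction.

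Wfs1 itself did not follow the labels. Its signal was 8.31 ± 0.31 log2 units (SD, n = 10) on the arrays ending ko and 8.12 ± 0.25 (SD, n = 8) on those ending wt (two-sided exact permutation test, p = 0.204), and 8.25 ± 0.35 and 8.197 ± 0.24 by field (SD, n = 9 each; exact permutation p = 0.697). The values formed 2 sets with nothing between 8.07 and 8.36, so the members were also compared between the 10 arrays under 8.2 log2 units (median 8.0) and the 8 over it (median 8.50). These sets are defined by the Wfs1 probeset and are not genotype groups. The arrays under 8.2 held 4 with the ending ko and 6 with the ending wt, and those over it 6 and 2.

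The respiratory chain genes did not separate these sets. Of 39 members, 0 were called, beside 2 genes (0.0100%) in all, Wfs1 itself and the complement gene C4b. The call of Wfs1 was fixed in advance, because its own signal defines the sets. The mean was higher on the arrays under 8.2 for 18 members, beside 48.5% of all genes and 45.6% without the dimmest 40%. The median difference of the members was -0.01, or 0.00 after quantile normalization. Without the 3 arrays of smallest spread it was 0.03, with 26 members higher. By complex the count over all 18 arrays was 11 of 20 in I, 2 of 4 in II, 4 of 6 in III, 1 of 6 in IV and 0 of 3 in V. The mean deviation of the members spanned -0.13 to 0.11 on the arrays under 8.2 and -0.10 to 0.05 on those over it. Uqcrfs1, the Rieske iron-sulfur protein of complex III, had the smallest p. It read 8.88 to 9.22 with a median of 9.025 on the arrays under 8.2 and 8.85 to 8.99 with a median of 8.93 on those over it, a difference of 0.12 (SE 0.05; limma adjusted p = 0.999). The ranges overlapped between 8.88 and 8.99. Ndufa10 differed by -0.09 (SE 0.05) and Cyc1 by -0.08 (SE 0.05). No member had sets that did not overlap, beside 0.0201% of all genes. No marker gene passed the threshold in the same comparison. The mean was higher on the arrays under 8.2 for 0 of 14 oligodendrocyte (median difference -0.17), 2 of 12 thalamic (-0.13), 17 of 19 hypothalamic (0.09) and 9 of 11 choroid plexus markers (0.10). The mean deviation of the oligodendrocyte list ran from -0.26 to 0.05 on the arrays under 8.2 and from -0.07 to 0.22 on those over it.

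Taken as a number over all 18 arrays, the Wfs1 signal gave a limma slope past the threshold for 0 members (lowest adjusted p = 0.9998) and for the same 2 genes. Of these, Wfs1 was fitted on its own values, so only the slope of C4b was free. Within each set no member was called. On the 10 arrays under 8.2 the median Pearson r of a member with Wfs1 was 0.19, with 27 of 39 above 0, and on the 8 arrays over it the median was -0.09, with 17 of 39 above 0. Of these 78 relations, 0 passed an adjusted p of 0.05 in permutation tests (lowest 0.696), and 1 and 3 had an unadjusted p under 0.05. Atp5b had the lowest r on the arrays over 8.2, at -0.75 (rho -0.88; exact permutation p = 0.0286, adjusted 0.696; r -0.75 without the 2 arrays farthest from the median).

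**Figure D4:**
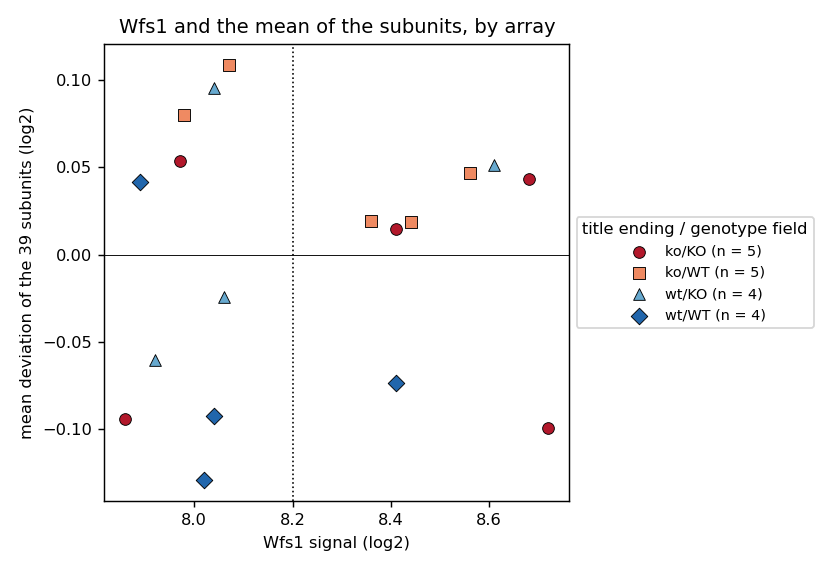
Mean deviation of the 39 subunits from their own means (vertical axis, log2 units) against the Wfs1 signal (horizontal axis, log2 units) on the 18 arrays, with symbols by label group; the dotted line is at 8.2. Arrays on both sides of the line lie above and below 0, from -0.13 to 0.11 on the left and from -0.10 to 0.05 on the right.

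Although no comparison separated them, the members varied together across the 18 arrays. Over the 741 pairs of members the median Pearson r was 0.34, and 602 pairs were above 0. The median was 0.01 over all pairs of genes and 0.16 over pairs of genes at least as bright as the dimmest member, which share the same arrays. The latter genes were not matched to the members in brightness. Their median signal was 9.17 log2 units, against 10.6 for the members. In permutation tests (100000 resamples) adjusted over the 741 pairs, 148 positive and 2 negative pairs passed 0.05. The count ranged from 119 without ko/KO 5 to 179 without wt/WT 1. The leading component of the members' scaled values held 40.1% of their variance, and 34 of 39 members loaded on it in the same direction. Of the 39 members, 25 correlated above 0.5 with the mean of the other 38 and 3 below 0. Neither the pairs that passed nor these 25 members have a count over sets of other genes beside them.

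Covariation was similar within and between complexes. The median r was 0.36 over the 229 pairs within a complex and 0.34 over the 512 pairs between complexes, and 22.3% and 19.3% of these pairs passed. The closest partner lay in the same complex for 11 of 39 members, where 229 of the 741 pairs are of that kind. For 24 of 39 members the median r with members of their own complex was above that with members of other complexes. Complex IV was the most coherent at 0.49 over 15 pairs, followed by complex I at 0.39 over 190, complex V at 0.33 over 3, complex II at 0.19 over 6 and complex III at 0.09 over 15. Ndufa4, now assigned to complex IV, was counted in complex I in all these counts and medians. Pairs of a complex I with a complex IV member had a median of 0.43, above the median within complex I. These medians are descriptions, since pairs share genes and arrays.

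The 5 closest pairs all joined different complexes. Ndufa2 of complex I and Cox6a1 of complex IV had r = 0.90 (rho 0.83, and r 0.78 without the 2 arrays farthest from the median of Ndufa2). Ndufb8 of complex I and Uqcrq of complex III had r = 0.90 (rho 0.92, r 0.89 without 2 arrays). Ndufa5 of complex I and Sdhb of complex II had r = 0.89 (rho 0.83, r 0.86). Ndufb10 and Ndufs8, an accessory and a core subunit of complex I, each followed Cox4i1, the regulatory subunit IV of cytochrome oxidase, at r = 0.89 (rho 0.88, r 0.81) and 0.86 (rho 0.88, r 0.82). All 5 had an adjusted permutation p of 0.00057, from an unadjusted 1e-05, the smallest these resamples can give. Leaving out any 1 array kept each of the 5 between 0.82 and 0.93. Ndufs8 followed the mean of the other members most closely of all 39 (r = 0.87), then Cox6a1 (0.82) and Sdhb (0.79).

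Pairs within complexes, chosen after their values were seen, ranged widely. In complex I the closest were the accessory subunits Ndufa5 and Ndufb10 at r = 0.86 (rho 0.86, adjusted permutation p = 0.00057, r 0.79 without 2 arrays). In complex III, Uqcrc1, a core protein, followed Cyc1 at r = 0.82 (rho 0.79, adjusted permutation p = 0.00185, r 0.81 without 2 arrays), but Uqcrc1 and the other core protein, Uqcrc2, which form a dimer, had r = 0.10. In complex IV, Cox5a and Cox6a1 had r = 0.85 (rho 0.92, adjusted permutation p = 0.00057, r 0.90 without 2 arrays). In complex V, Atp5a1 and Atp5b, whose products alternate in the catalytic ring, had r = 0.69 (rho 0.72, adjusted permutation p = 0.0140, r 0.57 without 2 arrays), while Atp5c1 had r = 0.02 with Atp5b and 0.33 with Atp5a1. In complex II, Sdhb and Sdhd had r = 0.65 (rho 0.69, adjusted permutation p = 0.0218, r 0.45 without 2 arrays), and the anchors Sdhc and Sdhd had r = 0.17. Sdhc instead followed Ndufa10 of complex I at r = 0.81 (rho 0.84, adjusted permutation p = 0.00185, r 0.71 without 2 arrays). These are the members with the smallest p on the contradicting arrays, so the pair of results rests on the same values.

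Of the 3 lowest pairs, all include Uqcrb, also known as the ubiquinone-binding protein of complex III. Uqcrb read 10.83, 10.72, 10.6, 10.93 and 10.88 log2 units on ko/KO, 10.64, 10.62, 10.78, 10.7 and 10.89 on ko/WT, 10.66, 10.76, 10.72 and 10.66 on wt/KO, and 10.67, 10.72, 10.7 and 10.8 on wt/WT. It was highest on ko/KO 4 and also high on ko/KO 1, where Uqcrq read 8.99 and 8.88, beside a mean of 9.03. Uqcrb was high as well on ko/KO 5, ko/WT 5 and wt/WT 4, the arrays of the 3 lowest values of Uqcrq. With Uqcrq it had r = -0.67 (rho -0.72, adjusted permutation p = 0.0182, r -0.72 without 2 arrays), with Ndufb9 r = -0.60 (rho -0.63, adjusted permutation p = 0.0440, r -0.46) and with Ndufb8 r = -0.58 (rho -0.59, adjusted permutation p = 0.0564, r -0.56). With each array centred on its median the 3 values were -0.54, -0.47 and -0.37 and none passed. The brightest Uqcrb probeset followed the next at r = 0.80 and the dimmest at 0.35, and with the next brightest in its place the pair with Uqcrq had r = -0.69.

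Uqcrb belonged to 6 members that varied together and apart from the rest, with Ndufb3, Ndufs1, Uqcrc2, Cox6c and Atp5c1. This set was put together after its values were seen and is given as a description. The 15 pairs among the 6 had a median r of 0.58 (0.42 to 0.86), led by Ndufb3 with Uqcrc2 (r = 0.86), whereas the 198 pairs of the 6 with the other 33 members had a median of -0.06 and the 528 pairs among the 33 a median of 0.41. The divide was not sharp: Ndufs4, an accessory subunit of complex I outside the 6, had r = 0.79 with Cox6c (rho 0.54, r 0.43 without 2 arrays) and 0.75 with Ndufb3 (rho 0.68, r 0.70), and loaded on the second component at 0.30. Atp5a1 and Ndufa4, also outside the 6, loaded on it at 0.26 and 0.21, beside 0.25 for Atp5c1 in the set. Ndufb3 read 8.52, 8.29, 8.49, 8.67 and 8.9 on ko/KO, 8.4, 8.45, 8.64, 8.45 and 8.67 on ko/WT, 8.69, 8.58, 8.52 and 8.36 on wt/KO, and 8.06, 8.3, 8.51 and 8.54 on wt/WT. It was highest on ko/KO 5, where the mean of the members was low, and lowest on wt/WT 1. The second component of the members, on which these 6 load, held 18.1% of the variance and correlated with the SD of all values of an array at r = 0.72 over 18 arrays and 0.37 over 15 without the 3 arrays of smallest spread, which had its 3 lowest scores. With the array median it correlated at r = -0.57 over 18 and -0.54 over 15 arrays. Genes as bright as the dimmest member had a median r of 0.33 with this component, against -0.09 over all genes but the members. The median was 0.46 over astrocyte and 0.43 over neuronal markers, but 0.09 over thalamic markers and -0.04 over cytosolic ribosomal protein genes. Over other subunits it was 0.09 in complex I, -0.004 in complexes III and IV with cytochrome c, and 0.17 in complex V. Without the 3 arrays, the median among the 6 was 0.66 and that with the 33 was -0.29, and after quantile normalization they were 0.40 and -0.28. The part of array spread and array median in this pattern was otherwise not tested.

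**Figure D5:**
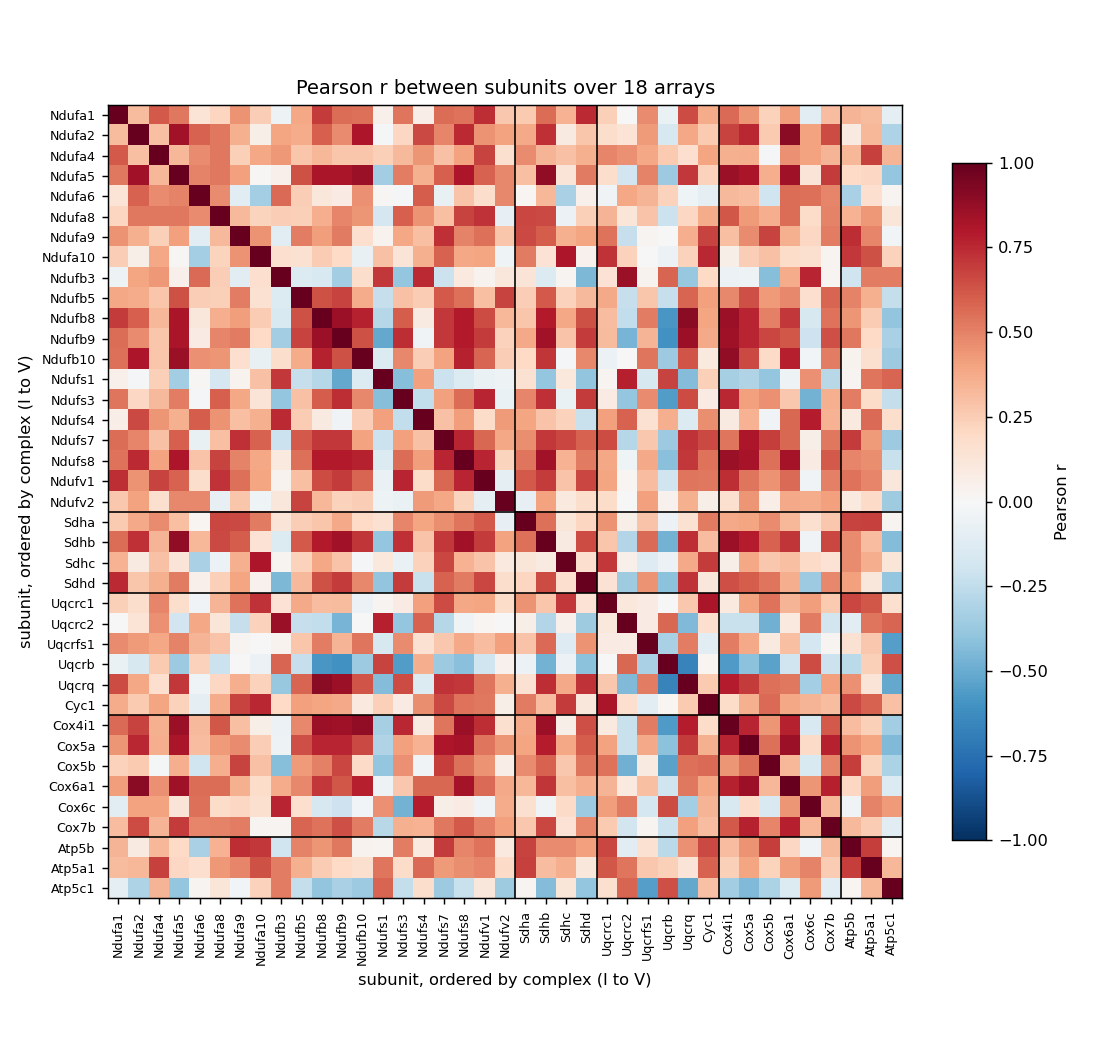
Pearson r between all pairs of the 39 subunits over 18 arrays, ordered by complex, with lines between complexes; red is positive and blue negative. Red extends across the lines between complexes (median 0.34 between and 0.36 within), and the rows of Ndufb3, Ndufs1, Uqcrc2, Uqcrb, Cox6c and Atp5c1 are mostly blue or pale against the other members and red among themselves, with red exceptions such as Cox6c and Ndufb3 with Ndufs4.

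Genes outside the list that followed the mean of the 39 members most closely, over 18 arrays and as a description, were led by Atp5g2 (r = 0.90), a gene for the c subunit of ATP synthase. They went on with Tm2d2 (0.89), Gstm5 (0.88), Naxe (0.87), Ndufb11 (0.86), Kctd2 (0.86), Atp5g3 (0.85), another c subunit gene, and Rpl13 (0.85), a ribosomal protein gene. Other subunits of the same complexes followed as well. The median r with the mean of the members was 0.57 over 15 further complex I subunits, 0.64 over 8 of complexes III and IV with cytochrome c, and 0.69 over 14 of complex V, against 0.00 over all other genes and 0.10 over the bright ones. Ribosomal protein genes of the cytosol (0.48, 22 genes) and of mitochondria (0.39, 36 genes) and glycolysis genes (0.47, 13 genes) lay between, and genes of the tricarboxylic acid cycle and pyruvate dehydrogenase were at 0.25 (15 genes). Assembly factors of the complexes were at 0.19 (40 genes), tissue-restricted isoforms of subunits at 0.09 (9 genes), and regulators of mitochondrial biogenesis at 0.05 (18 genes), which ran from -0.41 for Ppargc1b to 0.35 for Tfam. Neuronal markers were at 0.17, astrocyte at 0.20, microglia at 0.18, oligodendrocyte at 0.09, endothelial at 0.02 and choroid plexus at 0.00. The mean of the members correlated with the SD of all values of an array at r = 0.47, or 0.23 without the 3 arrays.

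The other genes of the pathway gave no calls in the label or Wfs1 comparisons either. Over all genes the calls were 0 by label and 2 (0.0100%) by Wfs1, which were Wfs1 and C4b. By title ending, with limma and 0 genes of each list past the threshold, the mean was higher on the arrays ending ko for 13 of 15 other complex I subunits, 6 of 8 of complexes III and IV, 13 of 14 of complex V, 34 of 40 assembly factors, 14 of 15 genes of the tricarboxylic acid cycle, 29 of 36 mitochondrial ribosomal proteins, 11 of 18 biogenesis regulators, 8 of 13 glycolysis genes and 3 of 9 tissue-restricted isoforms. The cytosolic ribosomal proteins stood at 7 of 22. Beside these counts, 51.8% of all genes were higher, and 66.8% of those left without the dimmest 40%. The gene of smallest p in each list was Ndufs6 (0.22, SE 0.10), Cox7a2 (0.16, SE 0.10), Atp5g3 (0.12, SE 0.07), Ndufaf4 (0.11, SE 0.05), Idh3b (0.10, SE 0.06), Mrps27 (0.09, SE 0.05), Polg2 (0.13, SE 0.05), Pfkm (0.07, SE 0.05) and Ndufa4l2 (-0.06, SE 0.05), as differences of log2 means with limma adjusted p of 0.884 to 0.885. Array wt/WT 1 decided much of several of these: without it the difference was 0.12 for Ndufs6, 0.06 for Cox7a2, 0.07 for Atp5g3 and 0.06 for Idh3b, and without all 3 arrays of smallest spread it was 0.09, 0.03, 0.04 and 0.06, and 0.04 for Pfkm. Without wt/WT 3, Ndufa4l2 differed by -0.02. Between the Wfs1 sets the counts higher on the arrays under 8.2 were 10 of 15, 4 of 8, 11 of 14, 13 of 40, 3 of 15, 21 of 36, 5 of 18, 2 of 13 and 2 of 9 in the same order, and 21 of 22 for the cytosolic ribosomal proteins. Here 48.5% of all genes were higher, and 45.6% of those left without the dimmest 40%. The genes of smallest p there were Ndufc2 (0.10), Uqcrh (0.08), Atp5l (0.07), Lyrm7 (0.14), Dlst (-0.07), Mrpl24 (-0.14), Tfb1m (-0.16), Pfkm (-0.07) and Cox7a1 (-0.14), each with a limma adjusted p of 0.999. Without ko/KO 1 the values for Uqcrh and Atp5l were 0.04 and 0.05, Uqcrh stood at 0.13 without the 3 arrays of smallest spread, and Atp5l at 0.11 without ko/KO 2 and at 0.04 with the mean of its probesets.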

How the data were processed

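The deposited values are log2 expression values, 1 per probeset and array, for 34760 probesets and 18 arrays. The log2 scale was read from the values (1.11 to 14.54). Per the labels' protocols, total RNA was extracted with Trizol and labelled by a whole-transcript protocol. RMA and MAS5 appear in the submitters' processing notes with no role or version. The sources used here give no array model or scan date. Scanner files were not used here.

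GEO's platform annotation, which can be old, gave 1 gene symbol for 21640 probesets, several for 1321 and none for 11799. Entrez identifiers matched the RefSeq table for 21553 of the 21640 and changed 0 symbols. The brightest probeset of each gene was used (19937 genes). Members were called with limma 3.58.1 (lmFit, eBayes) in R 4.3.3, without covariates, at a Benjamini-Hochberg adjusted p under 0.05 over all genes. Correlations used permutation tests, exact under 10 arrays. The programs were tested on simulated data. The text names Wfs1, the members of largest and smallest SD per complex, the 3 members of smallest p per comparison, the gene of smallest p per pathway list by ending and by Wfs1, the 5 highest and 3 lowest pairs, and the 8 other named genes closest to the members' mean; others were chosen after their values were seen. The members and lists were chosen with earlier results of these data known. Alternatives were quantile normalization, median centring, a filter on the dimmest 40% of genes, the mean of a gene's probesets, a trended robust variance, Spearman's rho, deviations within the Wfs1 sets or label groups, the Wfs1 signal as a number, the ending as a covariate, leaving out each array, and, chosen after seeing the data, leaving out the 3 arrays of smallest spread, or the array low in Xist with that high in Ttr, the next brightest probeset, and the interaction.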

Additional observations from a re-analysis of the deposited data

Results flagged for a closer look

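Of 160 sets of values (39 members and Wfs1 in 4 label groups of 4 or 5 arrays), 7 held an array far from the others of its group, where chance gives about 1 in 20. Low values were those of Ndufa8 on ko/WT 2 (10.32 log2 units, the next 10.38), Ndufb8 on ko/WT 5 (9.45, the next 9.71) and Cox7b on wt/KO 2 (10.43, the next 10.69). High values were those of Ndufs7 on wt/WT 3 (10.6, the next 10.37), Ndufs8 on wt/WT 3 (9.56, the next 9.36), Cox5b on ko/WT 1 (12.14, the next 11.98) and Cox6c on wt/KO 3 (11.45, the next 11.39).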

How the results depend on the processing

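No paired analysis was possible because the labels give the groups no shared replicate numbers. The 0 calls among members stood under every alternative run. By genotype field, the members counted with a higher mean on the KO arrays numbered 17 as deposited, including Ndufa9 with equal means. They numbered 9 after quantile normalization and 8 without the 3 arrays of smallest spread. When leaving out 1 array each they numbered 8 to 23, with the lowest count without wt/WT 1. On the agreeing arrays the 30 became 17 and 13 under the same alternatives, and 24 to 35 when leaving out 1 array. By ending the count ran from 29 to 36, on the contradicting arrays from 22 to 35 and by Wfs1 from 14 to 24 when leaving out 1 array. The median r within complexes, 0.36, was 0.44 with each array centred on its median and 0.30 over deviations within each pair of labels. Ndufb9 with Uqcrb lost its call under 16 alternatives and Uqcrq with Uqcrb under 2, while Ndufb8 with Uqcrb gained one under 8. The cause of these shifts was not tested. Single arrays and small differences limit what can be seen: with the labels in doubt, a missing call does not show that the members are alike in wild-type and mutant mice.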
